A study of Mus musculus with 2 samples.

Results

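The interferon regulatory factor (Irf) genes encode a family of transcription factors, and the Myb peaks around 8 of them were taken from the ChIP-Seq peak list of WT lineage-negative (Lin-) bone marrow cells. The 8 genes were Irf1, Irf2, Irf3, Irf4, Irf5, Irf7, Irf8 and Irf9. A peak was counted for a gene when its summit, the base of highest signal, lay in the gene body or within 100 kb of it in the GENCODE vM21 annotation. This rule took 67 of the 25793 Myb peaks, around 8 of the 21938 protein-coding genes, and no peak fell to more than 1 Irf gene.

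The cells had the WT genotype per the labels, which give no treatment, and the Lin- fraction that entered the chromatin preparation had a purity above 80%. In the study's methods, the mice named WT carried Ep300 fl/fl alleles without Mx1-Cre and, like the other genotypes, received poly(I:C), a double-stranded RNA that induces interferon, before marrow was taken. The sources used here do not say separately whether the mice of this library received it, and its part in the peaks described was not tested. Lin- cells are marrow cells left after removal of mature blood cells, a fraction that contains hematopoietic stem and progenitor cells (HSPCs) of several lineages. One antibody against Myb and a rabbit IgG control were used, with 1 library each and no replicate. The values thus describe this Myb library, and no test between genes was possible. The study's account of the Myb ChIP-Seq names the antibody as Abcam ab76009, while its reagent list names another Abcam antibody against Myb. The labelled cell type could not be checked against marker genes, because a peak list holds no expression values.

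IRF proteins bind short repeats of GAAA in regulatory DNA, called interferon-stimulated response elements. Some members drive the interferon genes or the genes that interferons induce, and others, above all Irf8, direct the choice between granulocyte, monocyte and dendritic cell fates in the marrow together with the ETS factor PU.1. Myb is a transcription factor that keeps immature blood cells proliferating, and it binds sites with the core AAC preceded by C or T and followed by G or T and then G.

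The 67 peaks were divided by position. A peak within 3 kb of any annotated start site of the Irf gene was placed at its own promoter, a peak within 3 kb of a start site of some other gene was placed at that gene's promoter, and a peak over 3 kb from every annotated start site was distal. Fold enrichment is the value deposited for each peak, in which 1 is added to both the scaled Myb pileup at the summit and the IgG background before they are divided, so it is lower than the plain ratio where the background is low. There were 12 peaks at Irf promoters, 36 at the promoters of other genes and 19 distal peaks. Distal peaks made up 28.4% of the 67, against 42.4% of all peaks. For peaks near other genes' start sites, the list does not show which gene a peak acts on.

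**Figure D1:**
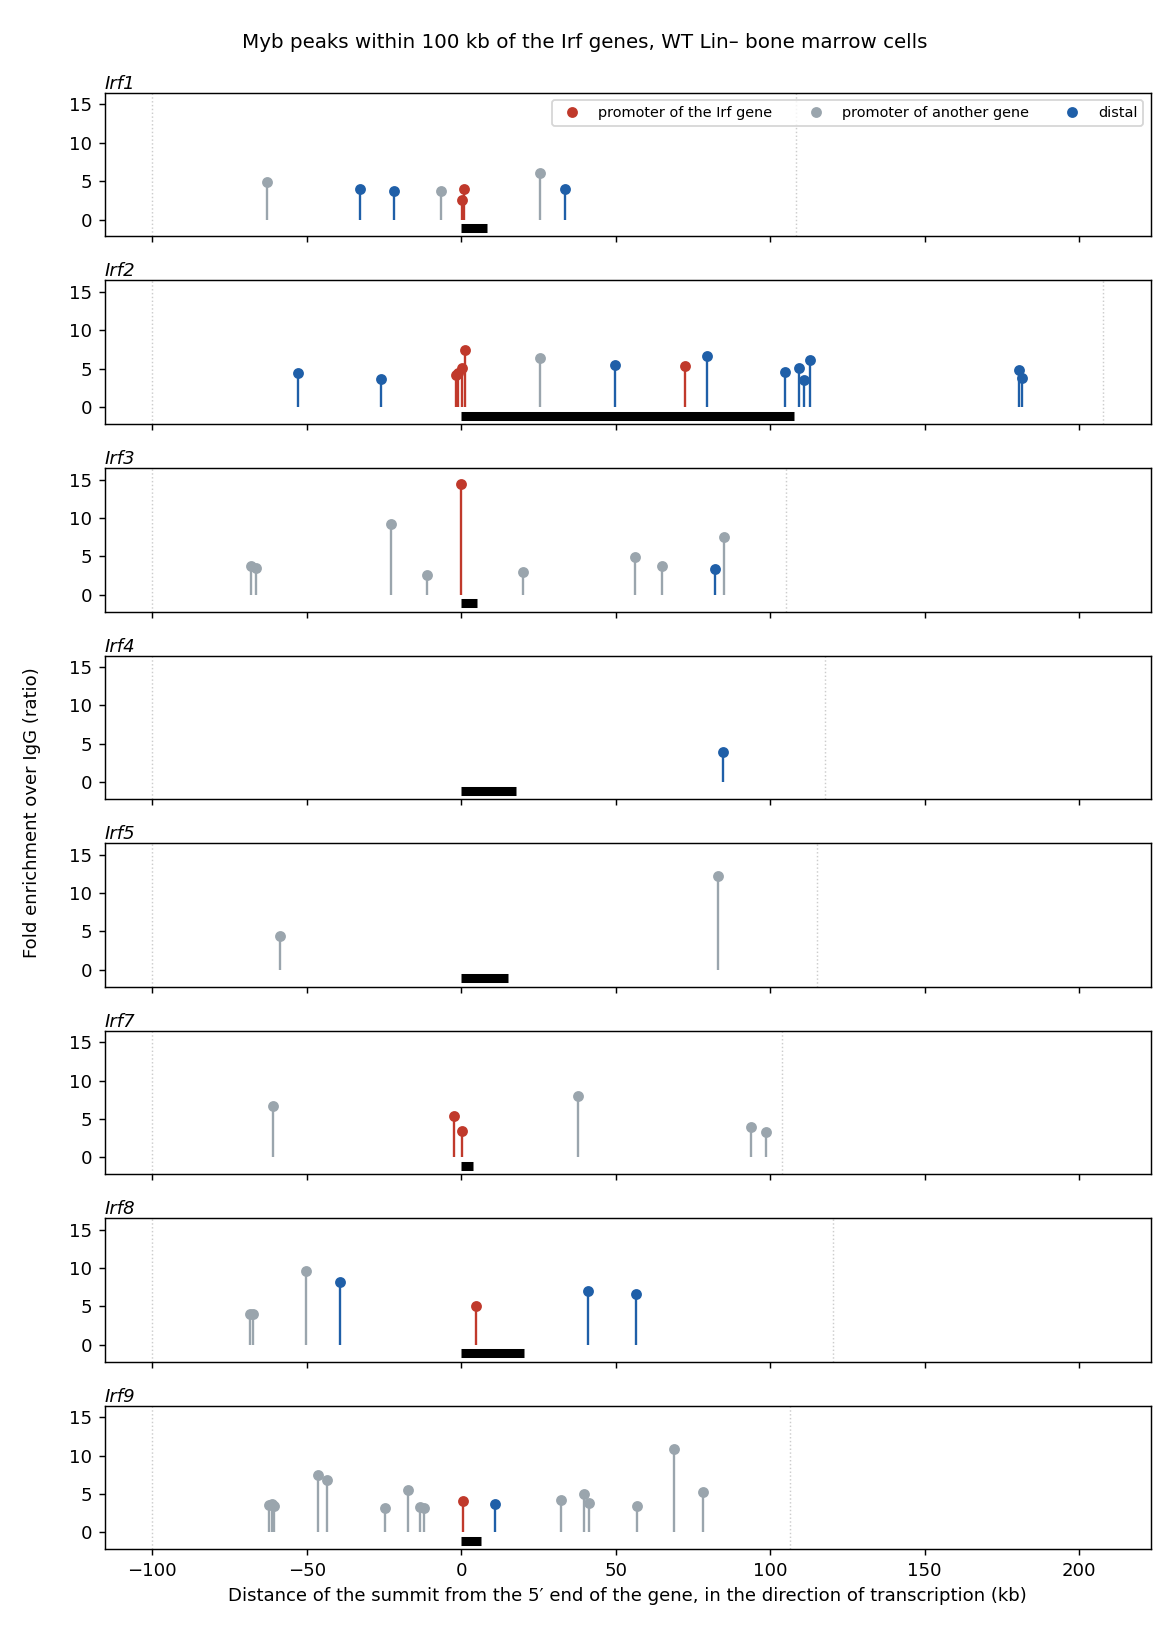
Myb peaks around each Irf gene, with the distance of the summit from the 5′ end of the gene on the x axis (kb, in the direction of transcription) and the fold enrichment over IgG on the y axis. Black bars are gene bodies and dotted lines mark 100 kb from either end of the gene. Irf8 had no peak at its 5′ end but distal peaks on both sides, Irf2 had peaks across its body and Irf4 had a single peak.

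The sequences under the summits that carry these results are given first, as 101 bases of the plus strand of mm10 (GRCm38) centered on the summit. The 4 strongest peaks of the Irf8 locus lay outside the gene. In the sequences 50.1 kb upstream and 41.0 kb downstream the capitals mark GAGGAA, the core bound by PU.1 and related ETS factors, and in the others they mark the Myb site defined above, on either strand.
Irf8 50.1 kb upstream, chr8:120686219-120686319: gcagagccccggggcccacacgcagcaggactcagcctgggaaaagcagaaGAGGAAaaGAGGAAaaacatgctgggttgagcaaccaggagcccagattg
Irf8 39.2 kb upstream, chr8:120697078-120697178: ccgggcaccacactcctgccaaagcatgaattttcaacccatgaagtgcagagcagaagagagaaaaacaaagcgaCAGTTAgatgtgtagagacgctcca
Irf8 41.0 kb downstream of the 5′ end, chr8:120777321-120777421: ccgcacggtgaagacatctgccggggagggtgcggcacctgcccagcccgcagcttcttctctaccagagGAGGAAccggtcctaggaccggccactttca
Irf8 56.7 kb downstream of the 5′ end, chr8:120793009-120793109: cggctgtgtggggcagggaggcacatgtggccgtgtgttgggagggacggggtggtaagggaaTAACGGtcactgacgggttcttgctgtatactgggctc

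The distal peaks of Irf2 and Irf1 that held a Myb site are shown for comparison, with the site in capitals. The Irf2 sequence 112.8 kb downstream also holds GAGGAA, directly after the Myb site and left in lower case.
Irf2 52.9 kb upstream, chr8:46686757-46686857: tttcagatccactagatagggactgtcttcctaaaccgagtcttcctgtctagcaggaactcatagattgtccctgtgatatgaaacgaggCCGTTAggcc
Irf2 109.5 kb downstream of the 5′ end, chr8:46849162-46849262: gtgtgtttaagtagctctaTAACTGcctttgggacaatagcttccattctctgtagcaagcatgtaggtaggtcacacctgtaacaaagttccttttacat
Irf2 112.8 kb downstream of the 5′ end, chr8:46852469-46852569: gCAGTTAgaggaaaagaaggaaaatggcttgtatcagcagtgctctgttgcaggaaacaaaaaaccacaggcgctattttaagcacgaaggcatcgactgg
Irf1 32.9 kb upstream, chr11:53737091-53737191: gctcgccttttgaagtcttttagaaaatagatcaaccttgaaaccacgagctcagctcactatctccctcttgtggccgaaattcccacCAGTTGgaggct

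The Myb site was within 50 bp of the summit in 0 of the 12 Irf promoter peaks (exact binomial 95% interval 0 to 26.5%), against 14.7% of all promoter peaks, a share the interval holds. The sequences of 3 of them are shown. In the Irf3 sequence the capitals mark the single match to a looser form, in which any base may stand before the last G. In the Irf1 sequence they mark AAC followed by any base and G, which was repeated 6 times in tandem there. The Irf2 sequence holds neither form and has no capitals.
Irf3 0.197 kb upstream, chr7:44997401-44997501: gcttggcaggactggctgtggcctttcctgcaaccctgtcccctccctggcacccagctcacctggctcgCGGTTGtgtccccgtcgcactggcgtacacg
Irf1 0.124 kb downstream of the 5′ end, chr11:53770088-53770188: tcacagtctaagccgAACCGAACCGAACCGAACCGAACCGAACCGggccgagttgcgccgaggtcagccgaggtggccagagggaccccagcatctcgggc
Irf2 1.39 kb downstream of the 5′ end, chr8:46741073-46741173: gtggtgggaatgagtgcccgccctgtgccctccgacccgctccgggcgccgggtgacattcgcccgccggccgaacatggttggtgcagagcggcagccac

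Myb peaks were found near every Irf gene, but the genes differed widely in number and kind. All 8 had at least 1 peak within 100 kb, as did 76.6% of all protein-coding genes. A peak at the gene's own promoter was present in 6 of 8, against 39.9% of all protein-coding genes, and within 3 kb of the 5′ end of the gene itself in 5 of 8, against 36.5%. At least 1 distal peak was present in 6 of 8, against 56.5%. The median Irf gene had 7.5 peaks of any kind and 1 distal peak, where the median protein-coding gene had 4 and 1. With 8 genes, these shares are a description of the family and not a comparison with the genome.

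Irf9 had the most peaks, 17, followed by Irf2 with 16, Irf3 with 10, Irf1 with 8, Irf8 with 7, Irf7 with 6, Irf5 with 2 and Irf4 with 1. The order was different for distal peaks, of which Irf2 had 10, Irf1 and Irf8 had 3 each, Irf3, Irf4 and Irf9 had 1 each, and Irf5 and Irf7 had 0. Among all protein-coding genes, 1.67% had at least as many distal peaks as Irf2 and 23.7% had at least as many as Irf1 and Irf8. Irf2 is the longest of the 8 genes at 107.7 kb, against 3.78 to 20.3 kb for the others, so its window was also the longest. Per megabase of window, Irf2 had 32.5 distal peaks, and 3.34% of protein-coding genes reached that density.

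**Figure D2:**
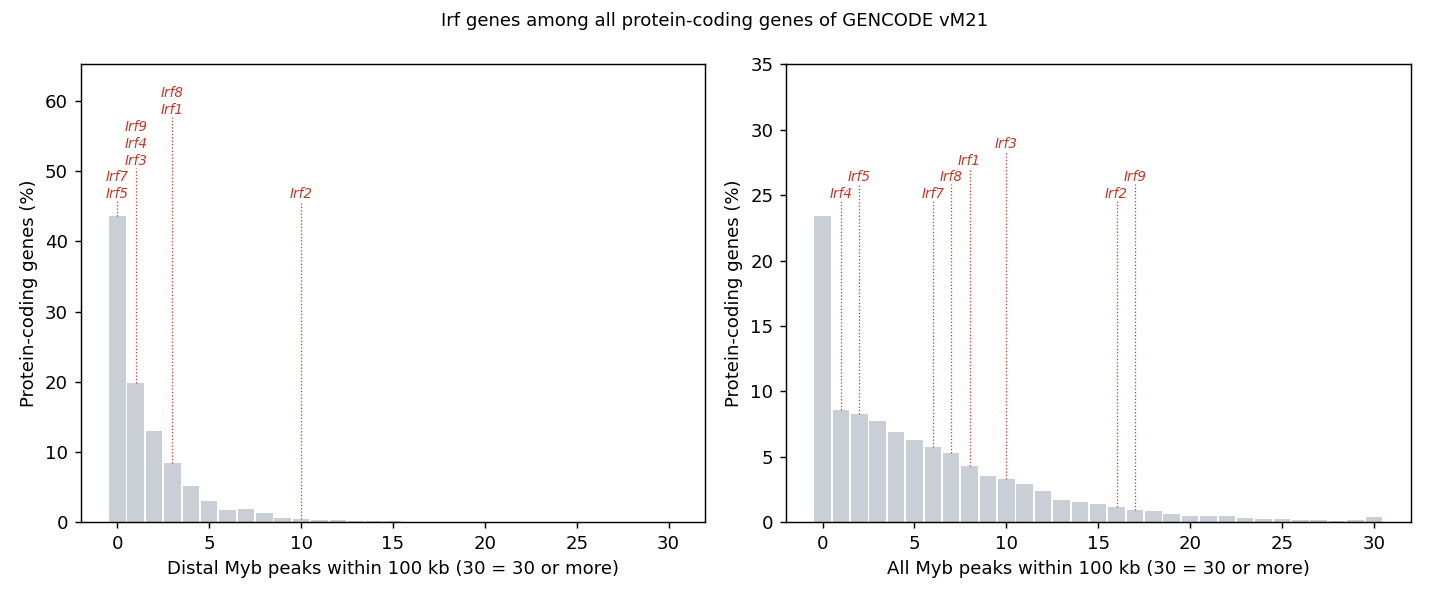
Share of protein-coding genes (y axis, percent) by the number of distal Myb peaks (left) or of all Myb peaks (right) within 100 kb (x axis), with each Irf gene placed at its own number. Irf2 stood at 10 distal peaks, where few genes lie, and Irf5 and Irf7 stood at 0.

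Gene neighbors differed as much as the peaks did. Irf9 had 19 other protein-coding genes starting within 100 kb, Irf7 had 12 and Irf3 had 11, whereas Irf2 had 0 and the median protein-coding gene had 4. Of the 17 peaks around Irf9, 15 lay at the promoters of 12 other genes, and of the 10 around Irf3, 8 lay at the promoters of 7 others. The Irf gene was the closest protein-coding gene for 14 of 16 peaks around Irf2, 4 of 8 around Irf1, 3 of 7 around Irf8, 1 of 17 around Irf9 and 0 of 10 around Irf3. Over the 8 genes this held for 25 of 67 peaks.

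**Figure D3:**
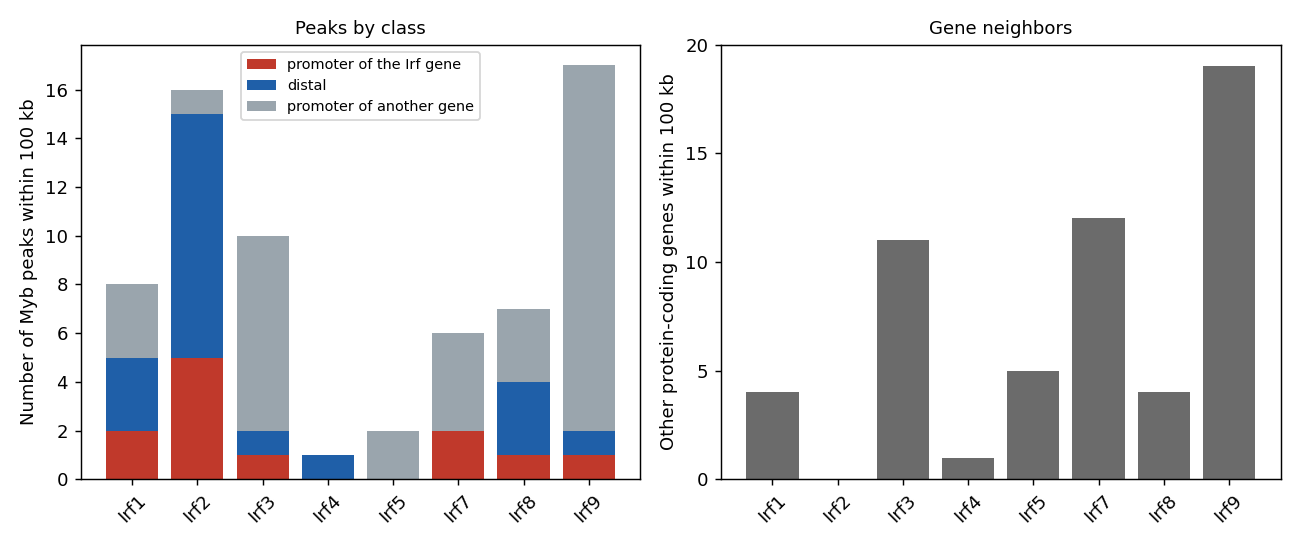
Number of Myb peaks within 100 kb of each Irf gene by class (left, stacked) and number of other protein-coding genes with their 5′ end in the same window (right). Most peaks around Irf9 and Irf3 lay at other genes' promoters. Most of those around Irf2, the gene with no protein-coding neighbor starting in its window, were distal.

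Irf3 and Irf7 are the members that switch on type I interferon genes after viral nucleic acid is sensed. The Irf3 promoter peak (chr7:44997069-44998905, with the summit 5′ of exon 1) had the highest fold enrichment of all peaks around the Irf genes. Its summit was covered by 49 reads (exact Poisson 95% interval 36.3 to 64.8) before scaling. The IgG background, which is set against the scaled pileup and not against the reads, was 1.68. The fold enrichment of this peak, 14.5 (10.8 to 19.0), was at the 99.0th percentile of all peaks. The Tnpo3 promoter peak in the Irf5 window had more reads, 62, and a higher −log10 q-value, 34.8 against 32.3, with a fold enrichment of 12.2 (9.39 to 15.5) whose interval overlapped. The summit of the Irf3 promoter peak lay 0.197 kb from the Irf3 5′ end and 0.094 kb from a start of Bcl2l12. The peak therefore cannot be given to either gene. The single distal peak of Irf3, 82.2 kb downstream of its 5′ end, had 11 reads and a fold enrichment of 3.30, and its summit lay in a repeat.

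Irf7 had a promoter peak in exon 2 (chr7:141265923-141266521) with 17 reads and a fold enrichment of 3.42, and another 2.30 kb upstream (chr7:141268555-141269163) with 22 reads and 5.40. The upstream summit lay in a repeat, that is, in lower-case sequence of the reference genome. The intervals of these folds overlapped, at 2.09 to 5.33 and 3.50 to 8.02. The strongest peak around Irf7 belonged to the promoter of Phrf1, with 51 reads and a fold enrichment of 8.05.

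Irf1, a transcriptional activator induced by interferon-γ, and Irf2, which competes with it for the same sites, were both marked at their 5′ ends. The peak in exon 1 of Irf1 (chr11:53770124-53770394) was the weakest at any Irf promoter. It had 15 reads (8.40 to 24.7) before scaling, a background of 4 on the scaled pileup and a fold enrichment of 2.51. It was the only peak of the 67 with a q-value over 0.05, as were 7.24% of all peaks. A second Irf1 peak, in intron 1 (chr11:53770493-53771168), had 17 reads and a fold enrichment of 3.98. This second summit lay in a repeat, and a start site of Gm17334 also lay within 3 kb of it.

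Irf2, which has 10 annotated start sites, had 5 peaks at its own start sites, a number that 1.09% of protein-coding genes reached. The number depended on the setting. It was 3 with a promoter window of 1 kb, 1 with 500 bp and 3 under a limit of 5 on the −log10 q-value. Of the 5 peaks, 4 lay around the 5′ end. Their summits were 1.69 kb and 0.964 kb upstream and 0.224 kb and 1.39 kb downstream of it. The numbers of reads were 15, 14, 26 and 25 in this order, and the fold enrichments were 4.18, 4.50, 5.10 and 7.45. The highest of them (chr8:46740738-46742013, intron 1) had an interval of 4.95 to 10.8 that overlapped those of the other 3. The same stretch also holds the start of a noncoding gene, Gm16675, which lay within 3 kb of all 4. The fifth peak (chr8:46811997-46812334, intron 5) was 2.83 kb from an internal start site, with 16 reads and a fold enrichment of 5.32.

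The distal peaks of Irf2 were spread over 2 positions upstream of the gene, 3 in its introns and 5 beyond its 3′ end. Fold enrichments ran from 3.55 to 6.70 and reads from 13 to 30. The 3 with the highest fold enrichment were in intron 6 (chr8:46818744-46819442, 22 reads, 6.70), past the 3′ end (chr8:46851433-46852653, 30 reads, 6.14) and in intron 1 (chr8:46789185-46790117, 18 reads, 5.47). Their intervals overlapped, at 4.34 to 9.95, 4.22 to 8.65 and 3.39 to 8.43. The second of them is the peak 112.8 kb from the 5′ end whose sequence is given above, and it lay with neighbors 109.5 and 111.0 kb from the 5′ end in a run of 3 just beyond the gene. The intron 1 peak was 3.81 kb from the nearest Irf2 start site, just past the promoter limit that the intron 5 peak, at 2.83 kb, still met.

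Irf1 had 3 distal peaks, 32.9 and 21.7 kb upstream and 33.7 kb downstream of its 5′ end. Their fold enrichments were 3.98, 3.76 and 3.99, with 21, 15 and 15 reads. All of them were below the median of all peaks, 4.51. The strongest peak near Irf1 was at the start of Gm12216, with 28 reads and a fold enrichment of 6.04.

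Irf8 is the member with the best known part in the marrow, where its loss leaves monocytes and dendritic cells short and granulocytes in excess, and it is controlled by enhancers on both sides of the gene. No Myb summit lay within 3 kb of its 5′ end, where 36.5% of protein-coding genes had one. The closest was in intron 2 (chr8:120741023-120741311), 4.82 kb downstream of the 5′ end and 2.54 kb from an internal start site, with 18 reads and a fold enrichment of 5.03 (3.12 to 7.76). It counts as a promoter peak only through that internal start site.

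The stronger Irf8 peaks were outside the gene. Upstream, the peak at 39.2 kb (chr8:120696268-120697652) had 31 reads and a fold enrichment of 8.16 (5.65 to 11.4), and its summit lay in a repeat. The closest protein-coding start to this summit was that of Cox4i1, 24.0 kb away, and not that of Irf8. Downstream, the peak at 41.0 kb (chr8:120777055-120777584) had 28 reads and 7.04 (4.78 to 10.03), and that at 56.7 kb (chr8:120792577-120793412) had 26 reads and 6.64 (4.45 to 9.58). These 3 stood at the 90.8th, 85.4th and 82.1st percentiles of all peaks, and they did not differ from one another beyond counting error.

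The strongest peak around Irf8, 50.1 kb upstream (chr8:120685920-120686653), had 38 reads (26.9 to 52.2) and a fold enrichment of 9.62 (6.90 to 13.1), and its summit also lay in a repeat. In both upstream windows 27.7% of the 101 bases were repeat sequence. It was 0.870 kb from the start of the noncoding gene Gm33142 and so was placed at another gene's promoter, but no protein-coding gene started closer than Cox4i1, 13.1 kb away. When start sites of protein-coding genes alone were used, the number of distal peaks over the 8 genes was 22. The 3 distal fold enrichments of Irf8 were all above the highest of Irf1, Irf3, Irf4 and Irf9, which was 3.99 (2.37 to 6.37), though the intervals overlapped. The highest of Irf2, 6.70, lay inside their range.

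**Figure D4:**
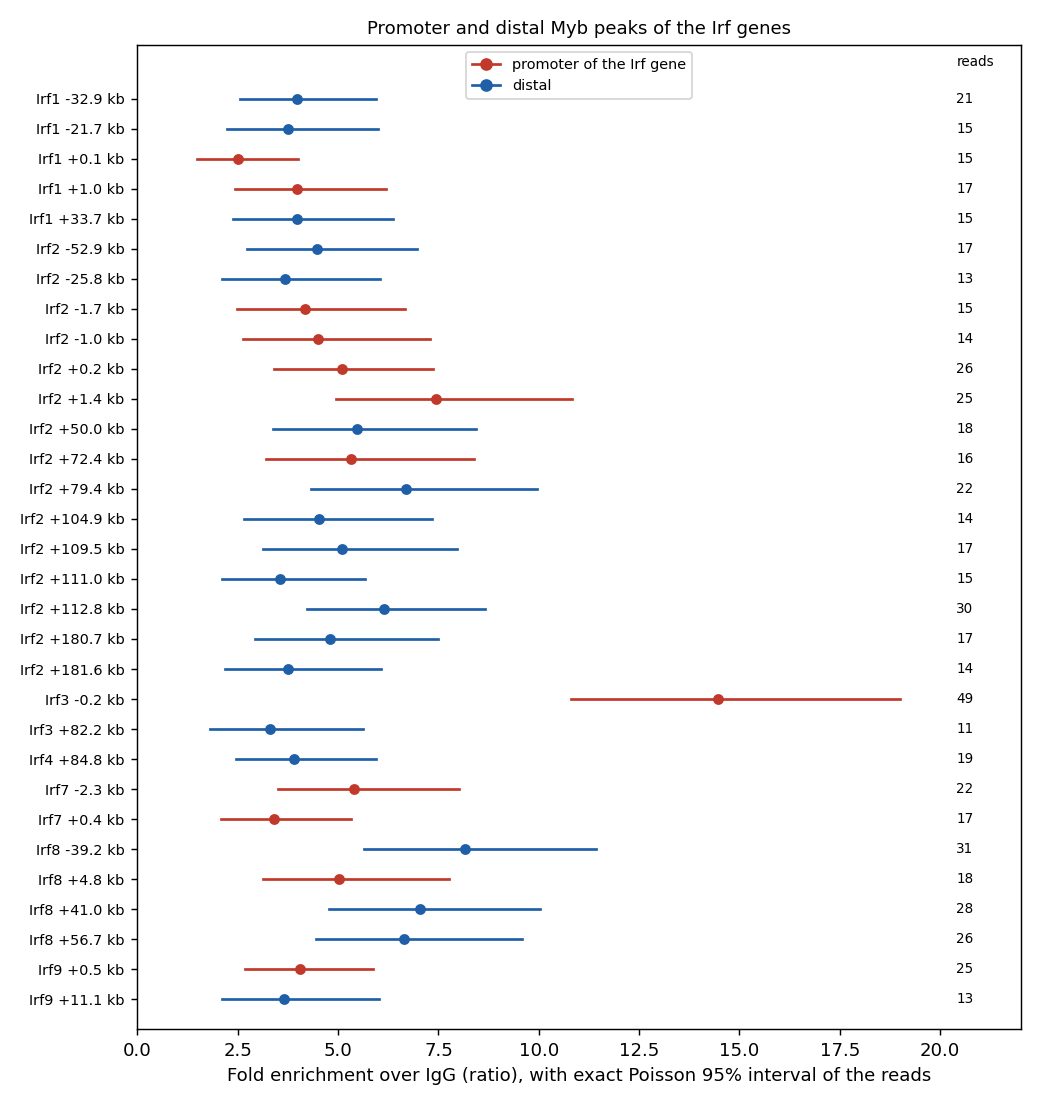
Fold enrichment over IgG (x axis) of the 12 promoter and 19 distal peaks of the Irf genes, each named by its distance from the 5′ end, with exact Poisson 95% intervals of the reads as bars and the number of reads at the right. The Irf3 promoter peak, at 14.5, lay above the rest, and the distal peaks with the highest fold enrichment were those of Irf8, at 8.16 and 7.04, followed by 1 of Irf2 at 6.70.

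Irf9, which works with Stat2 to read out type I interferon, had a promoter peak in exon 1 (chr14:55603803-55604856) with 25 reads and a fold enrichment of 4.05 (2.69 to 5.88). A start site of Rnf31 also lay within 3 kb of it. Its single distal peak, 11.1 kb downstream of the 5′ end, had 13 reads and a fold enrichment of 3.66, and the start of Rec8 was 3.34 kb away, just past the promoter limit. The strongest peak in the window was at the promoter of Gmpr2, with 35 reads and 10.9.

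Irf4, a regulator of plasma cells and of lymphoid and dendritic cell fates, had 1 Myb peak within 100 kb. It lay 84.8 kb downstream of the 5′ end (chr13:30833612-30834122), with 19 reads and a fold enrichment of 3.90 (2.45 to 5.96), and Irf4 was still its closest protein-coding gene. Irf5, which acts downstream of Toll-like receptors on inflammatory cytokine genes, had 2, both at other promoters. These were Atp6v1f, 58.5 kb upstream, with 21 reads and 4.37, and Tnpo3, 83.2 kb downstream of the Irf5 5′ end, with 62 reads (47.5 to 79.5) and 12.2. A summit nearer to the 5′ end than that of Irf4 was found for 71.6% of protein-coding genes, and for 66.3% in the case of Irf5.

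Across the 6 genes with a promoter peak, the highest fold enrichments were 14.5 for Irf3, 7.45 for Irf2, 5.40 for Irf7, 5.03 for Irf8, 4.05 for Irf9 and 3.98 for Irf1. The Irf3 value was that of the peak shared with Bcl2l12. The ranked peaks of Irf2, Irf9 and Irf1 also had a start of another gene within 3 kb. The interval of Irf3 did not overlap those of Irf7, Irf8, Irf9 and Irf1, and only just overlapped that of Irf2. From Irf2 down to Irf1, neighbors in this order did not differ beyond counting error. The median highest promoter fold was 5.22 over the 6 genes and 5.25 over the 8758 protein-coding genes with a promoter peak. Taken by class, the median fold enrichment was 4.76 for the 12 Irf promoter peaks, 4.17 for the 36 at other promoters and 4.48 for the 19 distal peaks. Median read numbers were 17.5, 25 and 17.

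At the 100 kb limit, the outermost peak inside was 94.9 kb from Irf7, with a fold enrichment of 3.32, and the nearest outside was 100.3 kb from Irf2, with 4.65.

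The Myb site was present within 50 bp of the summit in 10 of the 67 peaks, or 14.9% (exact binomial 95% interval 7.40 to 25.7), and in 16.7% of all peaks. By class it was found in 6 of 19 distal peaks, against 19.4% of all distal peaks, and in 4 of 36 peaks at other promoters, against 14.7% of all promoter peaks. The interval of the distal share, 31.6% (12.6 to 56.6), held the value of all distal peaks. Those 6 were 3 of Irf2, 2 of Irf8 and 1 of Irf1. The site was 13 bases from the summit in the Irf8 peak 56.7 kb downstream and 26 bases from it in the peak 39.2 kb upstream. In the Irf2 and Irf1 peaks it lay 26 to 44 bases away. Near Irf9, a peak 2.77 kb from the start of Dcaf11, chosen after its values were seen, had the site 3 bases from its summit, with 39 reads and a fold enrichment of 7.53.

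Sites of other blood factors were counted in the same windows on both strands. GAGGAA was in 4 of 19 distal Irf peaks, against 13.4% of all distal peaks. Those of Irf2 lay 79.4, 111.0 and 112.8 kb downstream of its 5′ end, and that of Irf8 lay 41.0 kb downstream. The GATA site, GATAA preceded by A or T, was also in 4 of 19, against 18.9%, and the RUNX site, GGT preceded by T, G and then C or T, was in 5 of 19, against 15.3%. An interferon-stimulated response element was found in 0 of 67 peaks and an ETS-IRF composite element in 0 of 67, where all peaks had 1.59% and 1.40%. The interval of a count of 0 in 67 reaches 5.36%, so lower shares were not detectable with this number of peaks. The STAT site, in which TTC and GAA stand 3 bases apart, was in 2 of 67, against 2.95% of all peaks, the NF-κB site in 6 of 67, against 4.11%, and longer ETS sites in 5 of 67, against 6.89%. The summit lay in a repeat in 4 of 19 distal Irf peaks, against 13.5% of all distal peaks, and in 3 of 12 Irf promoter peaks (interval 5.49 to 57.2%), against 9.38% of all promoter peaks. The 4 distal ones were 1 each of Irf1, Irf2, Irf3 and Irf8, and the promoter ones were 1 each of Irf1, Irf2 and Irf7. A match describes the letters under the summit and does not show which factor was bound.

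The RefSeq promoter windows of the 8 genes, each of 300 bases around a start site in GRCm38.p6, numbered 11. A Myb peak overlapped 6 of them, none of which belonged to Irf4, Irf5 or Irf8, against 21.8% of all RefSeq promoter windows, and windows of 1 gene can share a peak. The Myb site was in 2 of the 11, a second start of Irf8 and one of Irf9, against 28.3% of all RefSeq promoter windows. The Irf2 window alone held an interferon-stimulated response element and an ETS-IRF composite element, against 3.44% and 2.72% of all windows, and a Myb peak overlapped it.

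Genes around the IRFs in the same pathway were looked up in the same list. Of 65 pathway genes, 64 had a match, and 41 of the 64 had a Myb peak at their own promoter, against 39.9% of all protein-coding genes. A distal peak within 100 kb was present for 48 of the 64, against 56.5%. Pathway genes that lie close together can share a distal peak, so the 48 are not separate loci. By role, a promoter peak was present for 10 of 11 receptor and JAK-STAT genes, 7 of 9 partners and cofactors, 10 of 17 sensors, adaptors and kinases, and 14 of 27 interferon-induced genes. Of these 14, Psmb9 and Tap1, named after their values were seen, were counted through 1 and the same peak.

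**Figure D5:**
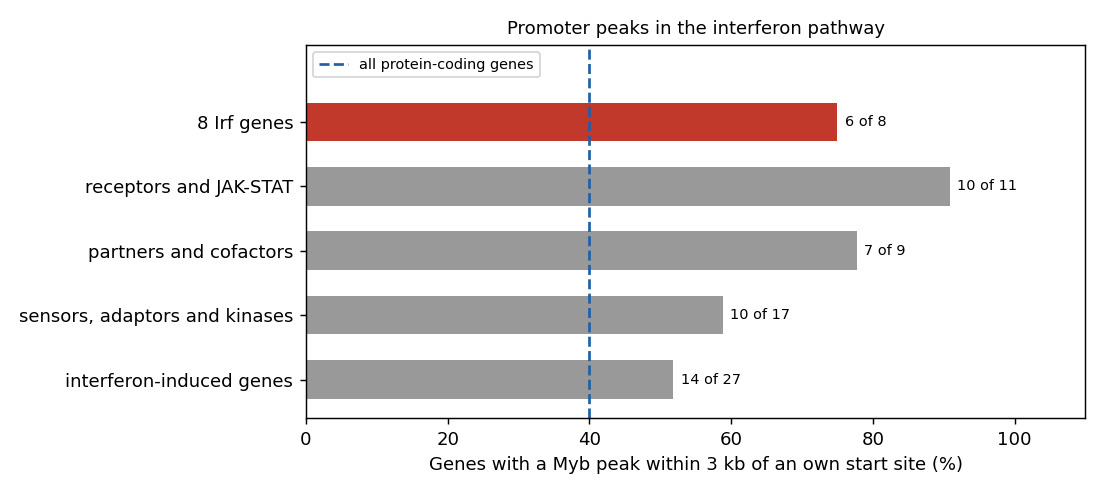
Share of genes with a Myb peak within 3 kb of an own start site (x axis, percent) for the Irf genes and 4 lists of the interferon pathway, with the count at the end of each bar and the share over all protein-coding genes as a dashed line. Receptor and JAK-STAT genes had the highest share, 10 of 11, and interferon-induced genes the lowest, 14 of 27.

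Among the receptors and their signal chain, Ifngr2, a chain of the interferon-γ receptor, had the highest promoter fold enrichment, 13.2 with 47 reads (34.5 to 62.5). Il10rb, a chain shared by the receptors of interleukin-10 and interferon-λ, followed with 7.69 and the kinase Jak2 with 7.22. Ifnar1 and Ifngr1, further receptor chains, had 6.23 and 3.66, the kinase Jak1 had 4.95, and Stat2, a partner of Irf9, had 5.46 with 20 reads. Ifnar1, Ifngr2 and Il10rb lie close together on chromosome 16, along with Ifnar2, named after its values were seen, so their windows share peaks.

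Of the partners, Spi1, which encodes PU.1, had a promoter fold enrichment of 14.8 with 59 reads (44.9 to 76.1). This was close to the 14.5 of the peak shared by Irf3 and Bcl2l12, and the intervals of the reads overlapped. Irf2bp2, a corepressor that binds Irf2, had 10.8 with 43 reads, and Ep300, the acetyltransferase p300, had 7.90 with 25 reads. Of the sensors and kinases, Tbk1, the kinase that activates Irf3, had 9.50 with 52 reads. The adaptor Ticam1 had 5.83 and the RNA sensor Ifih1 had 5.72.

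Among the interferon-induced genes the highest were B2m, the light chain of MHC class I, with 9.13 and 36 reads, the ubiquitin-like Isg15 with 7.12 and 26 reads, and the signaling inhibitor Socs1 with 6.06 and 25 reads. The Isg15 summit was nearer to the start of AW011738. No peak lay within 100 kb of Mx1, Oas1a, Oas3, Ifi44 and the sensor Tlr3, which were named after their values were seen. All other matched pathway genes had a peak in that window, whereas 23.4% of all protein-coding genes had none.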

How the data were processed

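ChIP-Seq of Myb and an IgG control was performed in WT Lin- cells, 1 single-end library each, with adapters inserted by Tn5. Per the submitters' processing notes, the authors used cutadapt 1.15, BWA 0.7.13, Picard and MACS2 2.1.1.20160309 with mm10, and per the study's methods peaks were called against IgG and kept by overlap of pseudo-replicates, which are subsets of 1 library. The deposited list gives the fold enrichment, the −log10 p-value and −log10 q-value, and a score. The fold enrichment is a ratio of the scaled Myb pileup to the IgG background with 1 added to each. The score equaled 10 times the −log10 p-value, rounded down and capped at 1000. A q-value limit does not hold for every row deposited, and only the list of the Myb library was used.

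Summits were placed on GENCODE vM21 (GRCm38, 1-based). Motifs were counted within 50 bp of summits in the GRCm38 reference, with repeats taken as its lower-case bases. Response elements were a pair of GAAA with any 2 bases between, and composite elements had GGAA in place of the first. Library totals were not used. Reads at each summit were recovered from fold enrichment and p-value with a pileup scale of 0.769, which gave whole reads in 100% of rows (tolerance 0.001 in −log10 p), against 1.24% after random shifts of up to 2%, and in 0.0271% of rows more than 1 number was possible. Intervals are exact 95% intervals, and they cover counting error only, since PCR copies are not independent molecules and the IgG background was taken as fixed. The recovery was tested on simulated data.

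Members, lists and motifs were chosen with earlier results of these data known. Named were the 8 Irf genes, every peak at an own promoter, the 3 distal peaks with the highest fold enrichment of each gene, the strongest peak of any kind with its nearest gene, the 3 genes of each pathway list with the highest promoter fold enrichment, and Spi1, Stat2, Jak1, Ifnar1 and Ifngr1. Of the genes this rule takes, 2 are not reported here. No test was run across peaks or genes. Mx2 had no protein-coding match and was not used here. Alternatives covered stricter q-values, other promoter and gene windows, protein-coding start sites, whole peaks and other motif forms. Python 3.11.15, pandas 2.3.3, numpy 2.4.6, scipy 1.17.1, pysam 0.24.0 and matplotlib 3.10.9 were used.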

Additional observations from a re-analysis of the deposited data

How the results depend on the processing

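No paired analysis was possible because there was 1 library of each kind. Requiring 5 or more for the −log10 q-value left 31 of the 67 peaks, 6 of the 12 Irf promoter peaks, 7 of the 19 distal peaks, 2 of the 6 genes with a distal peak, 23 of the 41 pathway genes and 5 of the 10 peaks with a Myb site. Under this limit 4 of 8 Irf genes had a promoter peak, against 24.3% of protein-coding genes, and 2 of 8 had a distal peak, against 37.6%, so the share of Irf genes with a distal peak turned from above to below that of all genes. Windows of 50 and 25 kb left 42 and 31 peaks, and the latter 9 distal ones. Where the Irf gene had to be the nearest protein-coding gene, 25 peaks and 12 distal peaks remained. With a promoter window of 500 bp there were 6 Irf promoter peaks and 34 distal peaks. The Myb site was in 4 peaks within 25 bp of the summit and 17 within 100 bp, in 23 peaks with any base before the last G and in 37 with AAC, any base and G. A narrower or wider setting changes these counts by construction. The turn in the distal share was set against all genes under the same limit, and what lies behind it was not tested. The number of Irf genes with a promoter peak was 4 to 6 under all settings. Irf8 had no promoter peak with windows of 1 kb or 500 bp, under the limit of 5 on the −log10 q-value or with gene 5′ ends alone. The 5′ ends and a q-value of at most 0.05 were chosen as settings after seeing the data. Of 136 values of single genes under other settings, 99 did not move beyond the limit set, 7 were higher and 30 were lower. With 11 to 62 reads per peak, differences between peaks under about the width of the intervals were not detectable, and 1 library gives no estimate of the variation between mice.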
